A study of Mus musculus with 8 samples.

Results

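Solute carrier (SLC) genes encode membrane proteins that move amino acids, sugars, metals, ions, nucleosides, vitamins and metabolites across the plasma membrane and the membranes of lysosomes, endosomes and mitochondria. The members described here are the protein-coding genes of the deposited table whose symbol is Slc, a number, the letter a and a number, except Slc40a1, Slc2a1, Slc16a3, Slc7a11, Slc3a2 and Slc7a5. They number 167 of 13388 genes and belong to 44 numbered families. Mitochondrial carriers (SLC25) are the most numerous with 37 genes, followed by the zinc importer family SLC39 with 11 and the amino acid family SLC7 with 7. A choice by name also takes in 3 genes whose products are not transporters, Slc9a3r1, Slc4a1ap and Slc7a6os, and leaves out nucleotide-sugar transporters with other letters in their symbols.

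RNA was sequenced from sorted bone marrow cells of wild-type mice after 6 h of coculture, in 4 groups of 2 libraries. The groups were common monocyte progenitors (cMoPs), the dividing precursors of monocytes, on OP9-DLL1 stroma, cMoPs on OP9 stroma, Ly6C+ classical monocytes on OP9-DLL1 stroma and Ly6C+ classical monocytes on OP9 stroma. OP9 is a mouse bone marrow stromal cell line, and OP9-DLL1 cells additionally carry DLL1, a ligand of Notch, on their surface. The labels give neither the age nor the strain of the mice, and nothing says that the 2 libraries of a group were of different mice or wells, so each p-value measures only the spread between those libraries, which may be technical.

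Monocytes and macrophages use SLC proteins to import arginine and other amino acids, to export lactate, to handle iron taken up with red cells and to withdraw metals from microbes held in phagosomes. Dividing precursors need folate, nucleosides, amino acids and exchange of ATP and metabolites with mitochondria. DLL1 binds Notch receptors on a neighbouring cell and frees their intracellular domain, which enters the nucleus and joins the DNA-binding protein RBPJ.

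Values are CPM, read counts scaled to a common library size, from the deposited log2 table, in which 0.5 reads had been added to each count. Recovered depth was 47316323 to 62459962 reads per library, so that 1 read was worth 0.0151 to 0.0231 CPM. All 167 members passed the filter of 1 CPM in at least 2 libraries. Their mean over the 8 libraries ran from 0.58 to 3160 CPM, with a median of 10.6 CPM against 12.5 CPM over all genes tested. Summed CPM of 8 classical monocyte markers was 5935 to 7169 in cMoPs and 26720 to 43000 in monocytes. That of 9 progenitor markers was 15220 to 22540 in cMoPs and 341 to 800 in monocytes. Both sums went with the labels. By gene, 6 of the 8 classical markers were lower in cMoPs on each stroma and 2 were higher (limma-trend adjusted p under 0.05). Of the 9 progenitor markers, 7 were higher in cMoPs on OP9-DLL1 and 8 on OP9, and none was lower. A T and NK cell list, with 2 of 5 genes in the table, summed to 179 to 322 CPM in cMoPs and 1.27 to 2.23 CPM in monocytes, and a B cell list with 1 of 4 genes to 44.3 to 63.1 CPM in cMoPs and 10.9 to 18.0 CPM in monocytes. Differences were tested with limma-trend across all 13374 genes tested, and a gene is said to pass, or to rise or fall, at a Benjamini-Hochberg adjusted p under 0.05.

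On OP9-DLL1, monocytes had less RNA of a metal importer, a sugar-phosphate antiporter, an arginine transporter and monocarboxylate transporters. They had more RNA of a choline transporter-like protein, a malate carrier of mitochondria, a sodium-calcium exchanger, a lysosomal transporter and another sugar-phosphate antiporter. Only the calls of the metal importer and the choline transporter-like protein held under every setting tried. In all, 14 of 167 members passed, 9 higher and 5 lower. That is 8.38%, beside 6.39% of all genes tested (3.36% higher and 3.03% lower) and 7.67% of the protein-coding genes tested. Shares of all genes tested, here and below, include genes that are not protein-coding. Centring each library on its median gave 8 members higher and 7 lower. The members' median log2 fold change was 0.12, beside 0.01 over all genes tested. The monocyte libraries did not overlap between stromas for 90 members (53.9%), beside 47.8% of all genes tested. In bulk RNA, fewer cells of a type and less RNA per cell cannot be told apart.

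**Figure D1:**
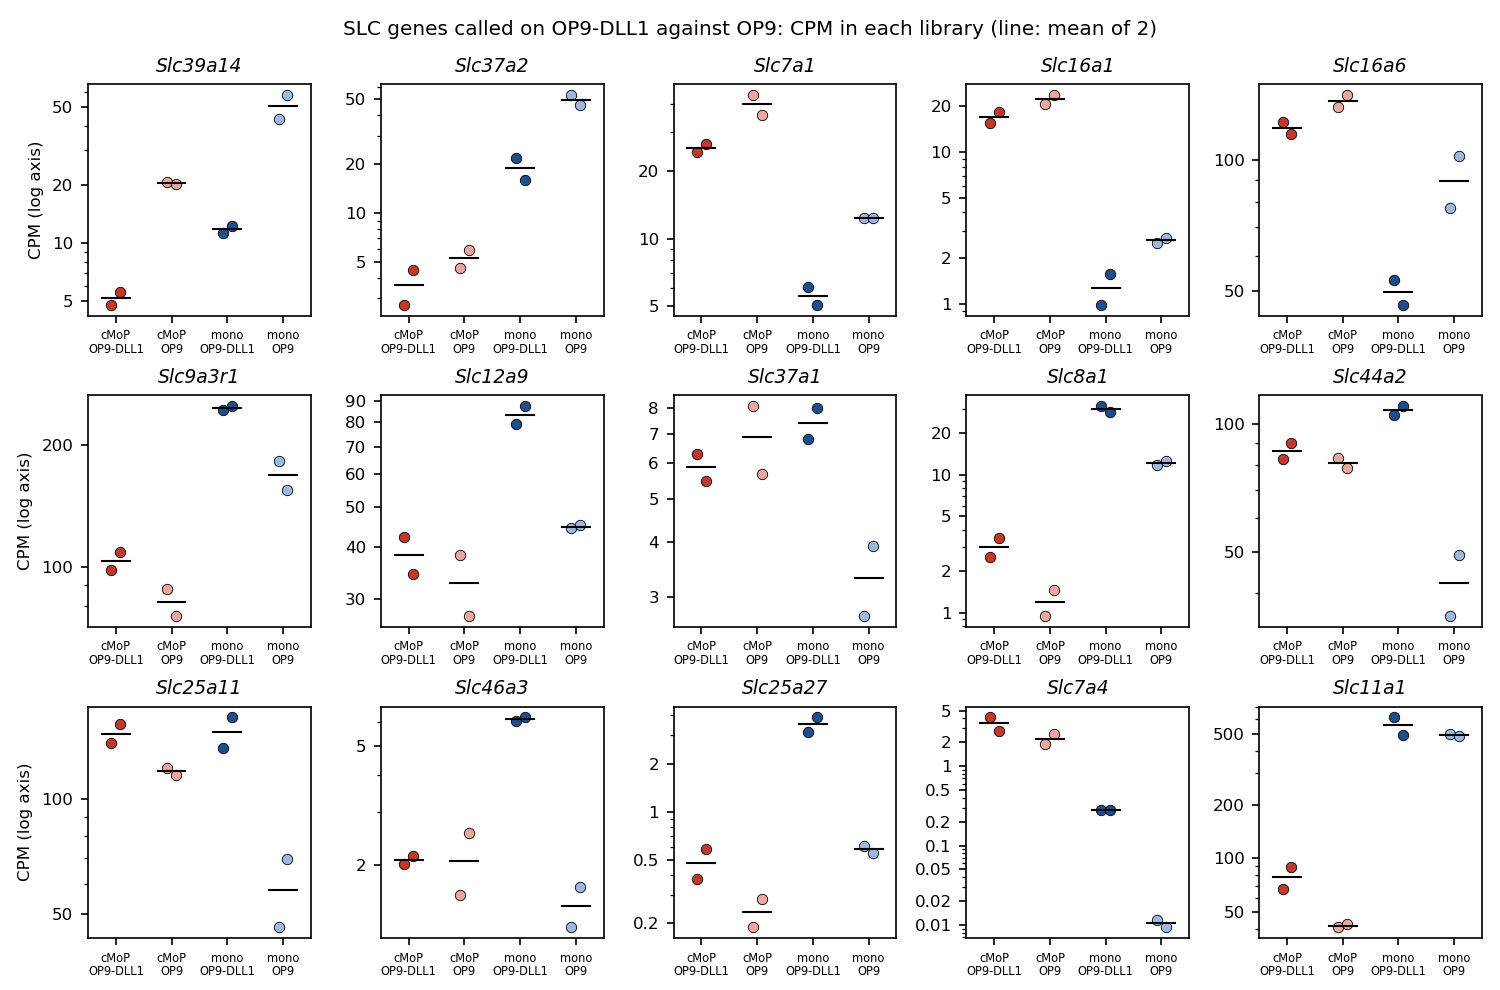
CPM in each of the 8 libraries (log axis) for the 15 SLC genes that passed for OP9-DLL1 against OP9 in monocytes or cMoPs, with a line at the mean of each group of 2. Slc39a14 is lower on OP9-DLL1 in both cell types, while for Slc44a2 the separation lies in monocytes (105 and 110.1 against 35.3 and 49.2 CPM) and the cMoP groups lie close together.

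Among the 24 genes for zinc, iron, copper, magnesium and heme, Slc39a14 (chromosome 14, 70303469 to 70351425, minus strand, GRCm38), an importer of zinc, iron and manganese, passed in both cell types. It had 4.77 and 5.59 CPM in cMoPs on OP9-DLL1, against 20.5 and 20.2 CPM in cMoPs on OP9. Monocytes had 11.2 and 12.3 CPM on OP9-DLL1, against 43.6 and 57.8 CPM on OP9. In each cell type both OP9-DLL1 libraries lay well below both OP9 libraries. The log2 fold change was -1.98 ± 0.18 in cMoPs (SE; limma-trend adjusted p = 0.0012) and -2.10 ± 0.18 in monocytes (adjusted p = 0.000583), and it passed in both cell types under every setting tried. These responses differed by 0.12 ± 0.26 on the log2 scale, cMoPs minus monocytes (adjusted p = 0.918). No other SLC gene passed in both cell types as reported. Slc25a45 did without monocyte OP9 replicate 1. Slc8a1 did without monocyte OP9 replicate 2, and also with the replicate number as a block in the fit.

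Slc11a1, the divalent metal transporter of the phagosome membrane, was the other member to pass in cMoPs. It had 67.3 and 88.8 CPM in cMoPs on OP9-DLL1, against 40.9 and 42.8 CPM in cMoPs on OP9 (log2 0.89 ± 0.16, adjusted p = 0.0401). In monocytes it stood far higher on either stroma, at 619 and 494 CPM on OP9-DLL1 against 497 and 485 CPM on OP9 (log2 0.17 ± 0.16, adjusted p = 0.584). The cMoP call was lost on leaving out either library of cMoPs on OP9-DLL1 (adjusted p 0.0546 and 0.26), either of cMoPs on OP9 (0.25 and 0.24) or either of monocytes on OP9-DLL1 (0.0704 and 0.0702), with voom (0.0656) or with no trend (0.243). The endosomal iron importer Slc11a2 had 23.7 and 24.1 CPM in cMoPs on OP9-DLL1, against 26.7 and 23.2 CPM in cMoPs on OP9, and the groups overlapped. The zinc exporter Slc30a1 had 4.59 and 6.30 CPM in monocytes on OP9-DLL1, against 4.26 and 3.12 CPM on OP9, without passing (adjusted p = 0.298).

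Of the 27 amino acid and peptide transporters, Slc7a1 fell and Slc7a4 rose in monocytes (7.41%, beside 6.39% of all genes tested). Slc7a1, the main importer of arginine and lysine, had 6.11 and 5.04 CPM in monocytes on OP9-DLL1, against 12.4 and 12.3 CPM on OP9 (log2 -1.16 ± 0.18, adjusted p = 0.00669). The cMoPs had 24.3 and 26.5 CPM on OP9-DLL1, against 43.7 and 35.6 CPM on OP9, which did not pass (log2 -0.64 ± 0.18, adjusted p = 0.204) except with only the groups compared in the fit (adjusted p = 0.0458). Both cell types thus had non-overlapping libraries for Slc7a1. Slc7a4, a relative of the cationic amino acid transporters whose substrate is unsettled, had 13 and 14 reads in monocytes on OP9-DLL1 and 0 reads in both libraries on OP9. With a floor of 3 reads over the group it was at least 8.72-fold higher on OP9-DLL1 (adjusted p = 0.0056), although both levels lay under 1 CPM and 13.3% of its exons overlap P2rx6. The call for Slc7a4 held whichever library was left out, and was lost with 1 added to CPM or with only the groups compared in the fit. Slc7a8, which carries neutral amino acids, had 25.6 and 25.8 CPM in monocytes on OP9-DLL1, against 55.6 and 39.2 CPM on OP9, without passing (log2 -0.86 ± 0.26, adjusted p = 0.091), though it passed with voom (0.0258) and with 1 added to CPM (0.0498). Slc38a2, a neutral amino acid importer induced by amino acid shortage, had 70.0 and 69.1 CPM in monocytes on OP9-DLL1, against 42.8 and 65.5 CPM on OP9, and did not pass (log2 0.39 ± 0.19, adjusted p = 0.256) except without monocyte OP9 replicate 2 (adjusted p = 0.0056).

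Among the 12 sugar and sugar-phosphate transporters, a pair of glucose 6-phosphate antiporters of the endoplasmic reticulum moved in opposite directions in monocytes. The pair is 16.7% of the class, beside 6.39% of all genes tested. Slc37a2 had 21.7 and 16.0 CPM in monocytes on OP9-DLL1, against 53.2 and 46.1 CPM on OP9 (log2 -1.41 ± 0.27, adjusted p = 0.0186). Slc37a1 had 6.83 and 8.01 CPM in monocytes on OP9-DLL1, against 2.71 and 3.92 CPM on OP9 (log2 1.18 ± 0.27, adjusted p = 0.0368). In neither gene did the monocyte groups overlap, and in cMoPs neither passed.

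The 8 transporters of monocarboxylates, dicarboxylates and fatty acids held 2 genes that fell in monocytes and none that rose. Slc16a6, known in zebrafish as an exporter of a ketone body, had 53.0 and 46.3 CPM in monocytes on OP9-DLL1, against 77.3 and 102 CPM on OP9 (log2 -0.84 ± 0.15, adjusted p = 0.0134). Slc16a1, which moves lactate and pyruvate with protons, had 0.975 and 1.58 CPM in monocytes on OP9-DLL1, against 2.51 and 2.73 CPM on OP9 (log2 -1.07 ± 0.27, adjusted p = 0.0467). Its call was lost whichever library was left out (adjusted p 0.0503 to 0.206). Some 23.5% of the exons of Slc16a6 overlap other genes, whose reads an unstranded kit cannot separate.

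The 21 transporters of sodium, protons, chloride, bicarbonate, calcium and phosphate held 2 genes that rose in monocytes. The 2 are 9.52% of the class, beside 6.39% of all genes tested. Slc8a1, which exchanges sodium for calcium at the plasma membrane, had 31.6 and 28.5 CPM in monocytes on OP9-DLL1, against 11.9 and 12.7 CPM on OP9 (log2 1.29 ± 0.27, adjusted p = 0.0249). In cMoPs it had 2.56 and 3.47 CPM on OP9-DLL1, against 0.945 and 1.47 CPM on OP9. That log2 fold change of 1.34 ± 0.27 did not pass (adjusted p = 0.0707). It passed with the replicate number as a block in the fit (adjusted p = 0.045) and on leaving out either monocyte OP9 library. The groups did not overlap in either cell type. Slc12a9, a member of the cation-chloride cotransporter family, had 79.5 and 87.7 CPM in monocytes on OP9-DLL1, against 44.6 and 45.2 CPM on OP9 (log2 0.90 ± 0.18, adjusted p = 0.0218).

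Of the 23 transporters of organic ions, vitamins, choline and vesicular substrates, Slc44a2 and Slc46a3 rose in monocytes (8.7%, beside 6.39% of all genes tested). Slc44a2, a choline transporter-like protein, had 105 and 110.1 CPM in monocytes on OP9-DLL1, against 35.3 and 49.2 CPM on OP9 (log2 1.37 ± 0.16, adjusted p = 0.00211). In cMoPs it had 82.5 and 90.0 CPM on OP9-DLL1, against 83.0 and 78.8 CPM on OP9, and those groups overlapped (log2 0.09 ± 0.16, adjusted p = 0.931). Slc44a2 and Slc39a14 were the only members whose monocyte call held under every setting tried. Slc46a3, a transporter of the lysosomal membrane, had 6.05 and 6.24 CPM in monocytes on OP9-DLL1, against 1.24 and 1.68 CPM on OP9 (log2 2.09 ± 0.33, adjusted p = 0.00828). In cMoPs Slc46a3 had 2.01 and 2.14 CPM on OP9-DLL1, against 1.58 and 2.55 CPM on OP9, again with overlap.

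Among the 37 mitochondrial carriers 2 rose in monocytes. Slc25a11, which exchanges 2-oxoglutarate for malate in the malate-aspartate shuttle, had 136 and 164 CPM in monocytes on OP9-DLL1, against 46.2 and 69.9 CPM on OP9 (log2 1.39 ± 0.19, adjusted p = 0.00437). It had 140 and 157 CPM in cMoPs on OP9-DLL1 and 121 and 116 CPM in cMoPs on OP9, so that both cMoP libraries on OP9-DLL1 lay between the monocyte libraries on that stroma. Slc25a27, a brain-rich relative of the uncoupling proteins, had 3.13 and 3.91 CPM in monocytes on OP9-DLL1, against 0.612 and 0.549 CPM on OP9 (log2 2.59 ± 0.53, adjusted p = 0.0238). The 2 are 5.41% of the class, beside 6.39% of all genes tested. The median log2 fold change of the class in monocytes was 0.24, with 24 genes above 0 and 13 below. Over all genes tested it was 0.01, with 6883 above 0 and 6491 below. The median log2 CPM of the monocyte libraries was 3.58 and 3.588 on OP9-DLL1, against 3.475 and 3.533 on OP9. None of the 12 genes for nucleosides, nucleotide sugars and acetyl-CoA passed in either cell type, but without monocyte OP9 replicate 2 Slc35a4 (log2 -0.50, adjusted p = 0.00758), Slc29a1 (log2 -0.90, adjusted p = 0.00778) and Slc43a3 (log2 1.18, adjusted p = 0.00205) passed in monocytes. Of the 3 genes that are not transporters, Slc9a3r1, a scaffold that ties membrane transporters to the cytoskeleton, rose in monocytes with 244 and 250 CPM on OP9-DLL1, against 182 and 155 CPM on OP9 (log2 0.56 ± 0.13, adjusted p = 0.0408).

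Most of these monocyte calls rested on both OP9-DLL1 libraries. Without monocyte OP9-DLL1 replicate 1, 5 members passed, and without replicate 2, 4 passed. Slc37a2, Slc16a1, Slc16a6, Slc25a27, Slc46a3, Slc8a1, Slc37a1, Slc12a9 and Slc9a3r1 were lost without either of them (adjusted p 0.0528 to 0.206 without replicate 1 and 0.0503 to 0.222 without replicate 2), and Slc7a1 (0.067) and Slc25a11 (0.0539) without replicate 2. Slc8a1 was also lost without monocyte OP9 replicate 1 (0.05), as was Slc37a1 (0.0872). Slc37a1 and Slc9a3r1 were lost on leaving out any single cMoP library (0.0545 to 0.0741). Without monocyte OP9 replicate 2, in contrast, 36 members passed, when 18.6% of all genes tested did.

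All 8 classical monocyte markers were in the table, and monocytes carried a total of 32730 and 26720 CPM of them on OP9-DLL1, against 43000 and 34880 CPM on OP9, with Fcgr1, Itgam and F13a1 lower and Csf1r higher on OP9-DLL1. Of the progenitor list Ms4a3 was higher there, at 13.7 and 16.1 CPM on OP9-DLL1 against 2.34 and 4.21 CPM on OP9. In cMoPs Ccr2 was the only classical monocyte marker to pass, lower on OP9-DLL1 (log2 -0.86, adjusted p = 0.0171), and none of the progenitor list did. The summed level of the neutrophil markers, 6 of 6 in the table, was 1054 and 896 CPM in monocytes on OP9-DLL1, against 1489 and 1881 CPM on OP9. None of the 6 passed between the stromas in monocytes. The stroma list, with 5 of 12 genes in the table, came to 4.24 and 16.7 CPM in monocytes on OP9-DLL1, against 18.2 and 21.0 CPM on OP9, and ranged from 0.582 to 2.36 CPM in cMoPs. Its only gene to pass ran against that sum, since Pdgfrb was higher on OP9-DLL1, at 2.9 and 4.24 CPM against 0.0346 and 0.214 CPM on OP9. A megakaryocyte list, with 2 of 4 genes in the table, came to 22.2 and 12.7 CPM in monocytes on OP9-DLL1, against 113 and 195 CPM on OP9, and both genes fell. These marker genes were named after their values were seen. The part of these differences in the SLC results was not tested.

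In cMoPs, 2 of 167 members passed (1.20%), Slc39a14 lower and Slc11a1 higher, beside 0.77% of all genes tested (0.464% higher and 0.307% lower). Of the protein-coding genes tested, 0.913% passed. The libraries did not overlap for 85 members (50.9%), beside 46.7% of all genes tested. The remaining 165 members did not pass, and 152 passed in neither cell type. Across the 167 members the responses of cMoPs and monocytes, which share no library, had a Pearson r of 0.41 and a Spearman rho of 0.37, beside 0.40 and 0.31 over all genes tested. Genes are not independent replicates.

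**Figure D2:**
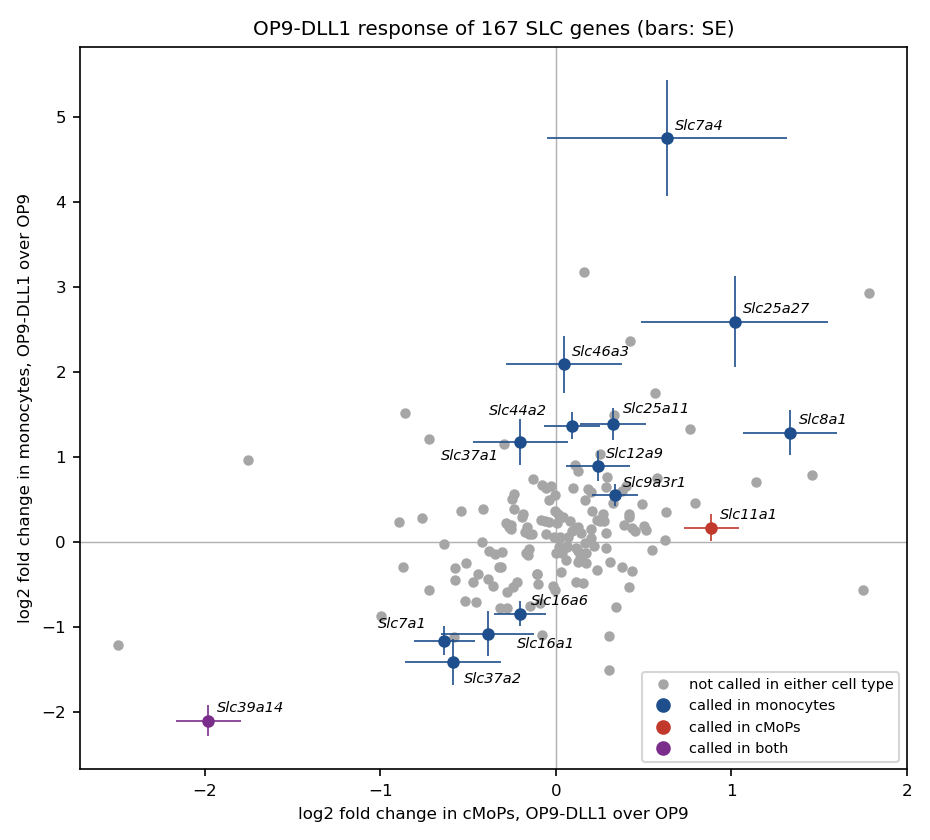
Log2 fold change on OP9-DLL1 over OP9 in cMoPs (x axis) and in monocytes (y axis) for each of the 167 SLC genes, with SE bars on the 15 that passed. Slc39a14 alone passed on both axes, Slc8a1 stands at 1.34 in cMoPs and 1.29 in monocytes, and the fitted value of Slc7a4 in monocytes rests on 0 reads on OP9.

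Whether the response itself differed between cMoPs and monocytes was tested as an interaction in the same fit. No member passed, beside 0.0523% of all genes tested, and voom on the recovered reads also gave 0. At an unadjusted p under 0.05 there were 21 members (12.6%), beside 9.79% of all genes tested. Of these, 7 had the higher response in cMoPs (4.19%, beside 5.18% of all genes tested) and 14 the lower (8.38%, beside 4.61%). The lowest adjusted p was 0.161, for Slc44a2, with a log2 fold change of 0.09 in cMoPs and 1.37 in monocytes (difference -1.28 ± 0.23). Slc46a3 followed with 0.05 in cMoPs and 2.09 in monocytes (difference -2.04 ± 0.47, adjusted p = 0.216). A gene that passed in monocytes and not in cMoPs is therefore not shown to respond differently in them. Leaving out either monocyte OP9 library changed the number of members that passed this test, in fits with 1 library in that group. Those numbers were not set beside all genes tested, so they show nothing particular to SLC genes.

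The core of the RBPJ binding motif, TGGGAA, was looked for on both strands in RefSeq promoters (GRCm38.p6), each running from 250 bases before to 50 after the first listed start. Of 125 members with an entry, 21 (16.8%) held it, beside 25.5% of 27025 promoters. Among the 11 members with an entry that passed on OP9-DLL1, 2 held it, Slc8a1 and Slc11a1, each with 2 matches. Their promoters are printed because they hold the matches, although neither gene kept its call under every setting. That of Slc44a2, which held its monocyte call under every setting and has no match, is printed beside them. Slc39a14, which passed in both cell types, had no promoter entry. Capitals mark TGGGAA or its reverse complement. A match describes letters only.
Slc8a1, chr17:81738338-81738637, minus strand: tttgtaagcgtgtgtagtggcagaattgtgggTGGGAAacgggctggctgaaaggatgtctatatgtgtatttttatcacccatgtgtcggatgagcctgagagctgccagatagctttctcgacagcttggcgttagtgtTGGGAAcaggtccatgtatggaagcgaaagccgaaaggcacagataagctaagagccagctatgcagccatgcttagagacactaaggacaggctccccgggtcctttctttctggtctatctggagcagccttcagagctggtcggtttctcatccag
Slc11a1, chr1:74374953-74375252, plus strand: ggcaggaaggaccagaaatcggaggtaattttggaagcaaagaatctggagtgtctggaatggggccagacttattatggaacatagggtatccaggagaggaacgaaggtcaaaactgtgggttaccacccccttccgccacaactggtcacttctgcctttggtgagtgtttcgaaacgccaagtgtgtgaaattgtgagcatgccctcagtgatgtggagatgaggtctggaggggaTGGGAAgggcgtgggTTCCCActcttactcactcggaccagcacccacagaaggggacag
Slc44a2, chr9:21320469-21320768, plus strand: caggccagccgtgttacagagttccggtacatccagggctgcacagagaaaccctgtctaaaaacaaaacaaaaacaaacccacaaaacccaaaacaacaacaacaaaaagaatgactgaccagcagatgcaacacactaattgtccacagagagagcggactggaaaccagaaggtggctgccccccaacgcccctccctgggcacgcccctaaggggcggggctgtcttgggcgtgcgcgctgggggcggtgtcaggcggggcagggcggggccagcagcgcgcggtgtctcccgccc

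Far more SLC genes separated the cell types than the stromas, as did far more of all genes tested. On OP9-DLL1, 111 members (66.5%) passed for cMoPs against monocytes, 52 higher and 59 lower in cMoPs. Of all genes tested 57.4% passed (28.2% higher and 29.2% lower), and of the protein-coding genes tested 59.9%. On OP9, 110 members (65.9%) passed, 58 higher and 52 lower, beside 56.5% of all genes tested (28.8% higher and 27.7% lower). Of the protein-coding genes tested, 58.9% passed there. The cell types' libraries did not overlap for 140 members on OP9-DLL1 (83.8%, beside 82.8% of all genes tested) and for 138 on OP9 (82.6%, beside 78.4%). On both stromas 45 were higher in cMoPs and 46 lower, together 54.5% of members beside 46.3% of all genes tested, and none passed in opposite directions. Fold changes on OP9-DLL1 and on OP9, which come from separate libraries, had a Pearson r of 0.92 over the members, beside 0.91 over all genes tested. A difference of 4-fold or more on both stromas was seen for 11 members higher in cMoPs and 13 lower, together 14.4%, beside 10.4% of all genes tested.

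**Figure D3:**
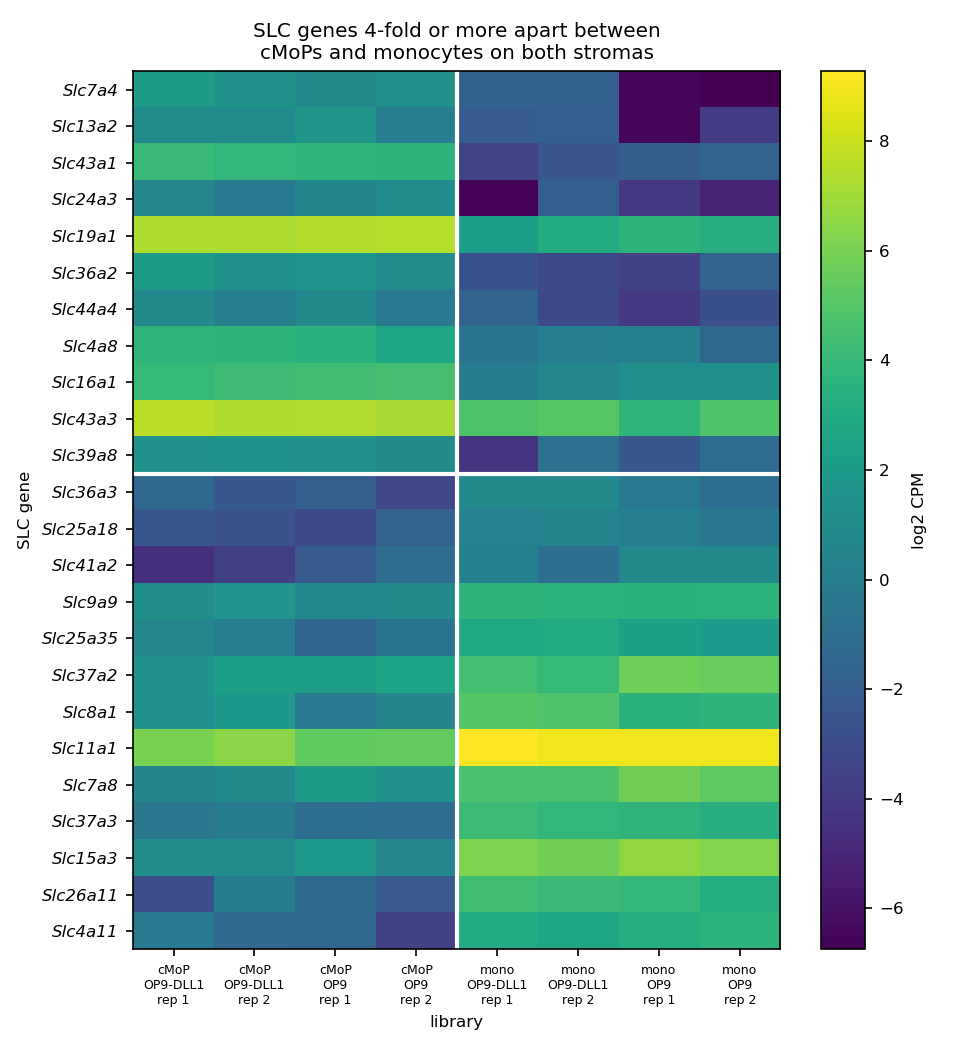
Log2 CPM in each library for the 24 SLC genes that passed with a difference of at least 4-fold between cMoPs and monocytes on both stromas. The upper block holds the 11 genes higher in cMoPs and the lower block the 13 lower in cMoPs, with colours to be compared within a gene since they are not adjusted for gene length.

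Per kb of exon, the strongest member over all libraries was Slc25a5, the main ADP/ATP carrier of dividing cells, with 1919 CPM per kb, followed by its relative Slc25a4 with 239 and by Slc11a1 with 78.8. Processed copies of ADP/ATP carrier genes are common in mammalian genomes, so the counts of Slc25a5 and Slc25a4 are less certain. Slc25a5 had 4378 and 4436 CPM in cMoPs on OP9-DLL1, against 2023 and 2048 CPM in monocytes on OP9-DLL1 (log2 1.11 ± 0.10, adjusted p = 1.81e-05). On OP9 it had 3979 and 4145 CPM in cMoPs, against 2236 and 2025 CPM in monocytes. Summed over the class, mitochondrial carriers held 5851 to 6685 CPM in cMoPs and 3191 to 3597 CPM in monocytes, most of it from Slc25a5. Of the 37 carriers 12 were higher in cMoPs and 10 lower on OP9-DLL1, and 15 higher and 7 lower on OP9 (59.5% on each, beside 57.4% and 56.5% of all genes tested). The aspartate-glutamate carrier Slc25a12 had 172 and 163 CPM in cMoPs on OP9-DLL1, against 87.3 and 76.9 CPM in monocytes on OP9-DLL1 (log2 1.03 ± 0.12, adjusted p = 7.86e-05). The mitochondrial iron importer Slc25a37 had 10.9 and 10.2 CPM in cMoPs on OP9-DLL1, against 3.09 and 4.47 CPM in monocytes on OP9-DLL1 (log2 1.51 ± 0.25, adjusted p = 0.000737). Slc25a45 went the other way with 119 and 112 CPM in cMoPs on OP9-DLL1, against 228 and 227 CPM in monocytes on OP9-DLL1 (log2 -0.98 ± 0.16, adjusted p = 0.000823).

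Slc19a1, Slc43a3 and Slc29a1, which bring in folate, nucleobases and nucleosides, were higher in cMoPs on both stromas. Slc19a1, the reduced folate carrier, had 156 and 160 CPM in cMoPs on OP9-DLL1, against 4.77 and 8.74 CPM in monocytes on OP9-DLL1 (log2 4.61 ± 0.26, adjusted p = 1.23e-06). On OP9 it had 172 and 178 CPM in cMoPs, against 12.8 and 9.22 CPM in monocytes (log2 4.01 ± 0.26, adjusted p = 3.72e-06). Slc43a3, a purine nucleobase carrier, had 199 and 157 CPM in cMoPs on OP9-DLL1, against 27.9 and 32.5 CPM in monocytes on OP9-DLL1 (log2 2.55 ± 0.30, adjusted p = 9.52e-05). The plasma membrane nucleoside transporter Slc29a1 had 91.2 and 97.3 CPM in cMoPs on OP9-DLL1, against 20.9 and 16.6 CPM in monocytes on OP9-DLL1. Its lysosomal relative Slc29a3 ran the other way, with 60.4 and 56.4 CPM in cMoPs on OP9-DLL1, against 123 and 115 CPM in monocytes on OP9-DLL1 (log2 -1.03 ± 0.12, adjusted p = 9.15e-05). In none of these genes did the cell types overlap on either stroma. Of the 12 genes for nucleosides, nucleotide sugars and acetyl-CoA, 4 were higher in cMoPs and 3 lower on each stroma (58.3%, close to the 57.4% on OP9-DLL1 and 56.5% on OP9 of all genes tested).

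Of the 27 amino acid transporters 8 were higher in cMoPs and 14 lower on OP9-DLL1, together 81.5% beside 57.4% of all genes tested. On OP9, 9 were higher and 12 lower, together 77.8% beside 56.5%, and the genes tested as a whole passed about equally in each direction. Slc43a1, a carrier of branched-chain and other large neutral amino acids, had 17.5 and 14.8 CPM in cMoPs on OP9-DLL1, against 0.0924 and 0.184 CPM in monocytes on OP9-DLL1 (log2 6.95 ± 0.41, adjusted p = 1.56e-06). Slc36a2, a proton-coupled carrier of small amino acids, had 4.01 and 2.62 CPM in cMoPs on OP9-DLL1, against 0.154 and 0.107 CPM in monocytes on OP9-DLL1 (log2 4.66 ± 0.72, adjusted p = 0.000501). Slc7a1 and the glutamine carrier Slc1a5 were also higher in cMoPs (log2 2.20 ± 0.18 and 1.24 ± 0.16 on OP9-DLL1). Slc7a4 had 263 reads in cMoPs and 0 reads in monocytes on OP9, at least 70.4-fold higher in cMoPs. Lower in cMoPs were Slc15a3, a histidine and peptide transporter of lysosomes, Slc7a8 and Slc7a7, which exchanges cationic for neutral amino acids. Slc15a3 had 2.12 and 2.0 CPM in cMoPs on OP9-DLL1, against 71.5 and 56.0 CPM in monocytes on OP9-DLL1 (log2 -4.94 ± 0.34, adjusted p = 3.51e-06), although 28.1% of its exons overlap Tmem132a. Slc7a7 had 24.1 and 19.8 CPM in cMoPs on OP9-DLL1, against 89.1 and 76.4 CPM in monocytes on OP9-DLL1 (log2 -1.92 ± 0.21, adjusted p = 6.62e-05). The lysosomal amino acid sensor Slc38a9 was lower in cMoPs on both stromas too (log2 -1.68 ± 0.20 on OP9-DLL1 and -1.29 ± 0.20 on OP9).

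Of the 24 metal transporters 6 were higher in cMoPs and 9 lower on OP9-DLL1 (62.5%, beside 57.4% of all genes tested), and 6 higher and 10 lower on OP9 (66.7%, beside 56.5%). Slc11a1 was lower in cMoPs, with a log2 fold change of -2.84 ± 0.16 on OP9-DLL1 (adjusted p = 1.07e-06) and -3.55 ± 0.16 on OP9 (adjusted p = 6.01e-07). Both libraries of cMoPs on OP9-DLL1, at 67.3 and 88.8 CPM, lay far below each monocyte library. Slc39a14 was lower in cMoPs on OP9-DLL1 (log2 -1.18 ± 0.18) and on OP9 (log2 -1.30 ± 0.18). The heme transporter Slc48a1 was higher in cMoPs, with 109 and 138 CPM on OP9-DLL1, against 47.9 and 47.5 CPM in monocytes on OP9-DLL1 (log2 1.36 ± 0.20, adjusted p = 0.000325). The zinc importer Slc39a4 had 0.641 and 0.515 CPM in cMoPs on OP9-DLL1, against 7.50 and 7.02 CPM in monocytes on OP9-DLL1 (log2 -3.66 ± 0.44, adjusted p = 0.000105). Another importer of zinc, Slc39a8, was higher in cMoPs, with 2.7 and 2.91 CPM on OP9-DLL1, against 0.0513 and 0.611 CPM in monocytes on OP9-DLL1 (log2 3.98 ± 0.999, adjusted p = 0.00757; 2.20 without monocyte OP9-DLL1 replicate 1 and 5.77 without replicate 2).

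Of the 21 ion transporters 5 were higher in cMoPs and 11 lower on each stroma, together 76.2% beside 57.4% of all genes tested on OP9-DLL1 and 56.5% on OP9. Slc26a11, a sulfate transporter, had 0.132 and 1.02 CPM in cMoPs on OP9-DLL1, against 19.3 and 17.6 CPM in monocytes on OP9-DLL1 (log2 -5.65 ± 0.80, adjusted p = 0.000294; -4.17 without cMoP OP9-DLL1 replicate 1 and -7.13 without replicate 2). Slc4a11, of the bicarbonate transporter family, had 0.869 and 0.413 CPM in cMoPs on OP9-DLL1, against 8.14 and 6.43 CPM in monocytes on OP9-DLL1 (log2 -3.59 ± 0.67, adjusted p = 0.00147), and was lower in cMoPs on OP9 too (log2 -5.91 ± 0.67; -7.03 without cMoP OP9 replicate 1 and -4.80 without replicate 2). Slc8a1 (log2 -3.33 ± 0.27 on OP9-DLL1) and the endosomal sodium-proton exchanger Slc9a9 (log2 -2.22 ± 0.23) were lower in cMoPs as well. The sodium-driven chloride-bicarbonate exchanger Slc4a8 was higher in cMoPs, with 13.3 and 12.9 CPM on OP9-DLL1, against 0.708 and 1.12 CPM in monocytes on OP9-DLL1 (log2 3.88 ± 0.51, adjusted p = 0.000176). Slc24a3, a potassium-dependent sodium-calcium exchanger, had 207 reads in cMoPs and 3 reads in monocytes on OP9, a ratio of 55.4 with a 95% counting interval of 18.7 to 271. Its call was lost without cMoP OP9 replicate 2 (adjusted p = 0.0609).

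The monocarboxylate class had 4 of 8 genes higher in cMoPs and 1 lower on OP9-DLL1 (62.5%, beside 57.4% of all genes tested), and 5 higher and 1 lower on OP9 (beside 56.5%). Slc16a1 had 15.5 and 18.5 CPM in cMoPs on OP9-DLL1, against 0.975 and 1.58 CPM in monocytes on OP9-DLL1 (log2 3.77 ± 0.27, adjusted p = 4e-06). The citrate and dicarboxylate importer Slc13a2 had 273 reads in cMoPs and 3 reads in monocytes on OP9, a ratio of 73.0 with a 95% counting interval of 24.7 to 356, and 26.2% of its exons overlap an antisense gene. Among sugar transporters Slc37a2 and Slc37a3, a lysosomal member of the family, were lower in cMoPs, Slc37a3 with 0.746 and 0.987 CPM on OP9-DLL1, against 17.9 and 14.4 CPM in monocytes on OP9-DLL1 (log2 -4.23 ± 0.29, adjusted p = 3.64e-06). Slc50a1, the sugar transporter with the highest level per kb (54.7 CPM per kb), differed little between the cell types, with log2 0.39 ± 0.13 on OP9-DLL1 (adjusted p = 0.0292) and 0.23 ± 0.13 on OP9 (adjusted p = 0.159). The multivitamin transporter Slc5a6 was higher in cMoPs (log2 2.13 ± 0.20 on OP9-DLL1 and 1.86 ± 0.20 on OP9). The riboflavin transporter Slc52a3 had 36 and 0 reads in cMoPs on OP9-DLL1, against 335 and 480 reads in monocytes on OP9-DLL1, a log2 fold change of -6.77 ± 1.57 (adjusted p = 0.00498). It was -3.64 without cMoP OP9-DLL1 replicate 2, the library with 0 reads, and -9.89 without replicate 1, and on OP9 the gene did not pass (log2 -4.05 ± 1.57, adjusted p = 0.0509). Slc44a4, a choline transporter-like protein, had 1.78 and 0.885 CPM in cMoPs on OP9, against 0.0577 and 0.14 CPM in monocytes on OP9 (log2 3.81 ± 0.84, adjusted p = 0.00401; 3.17 without monocyte OP9 replicate 1 and 4.44 without replicate 2).

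**Figure D4:**
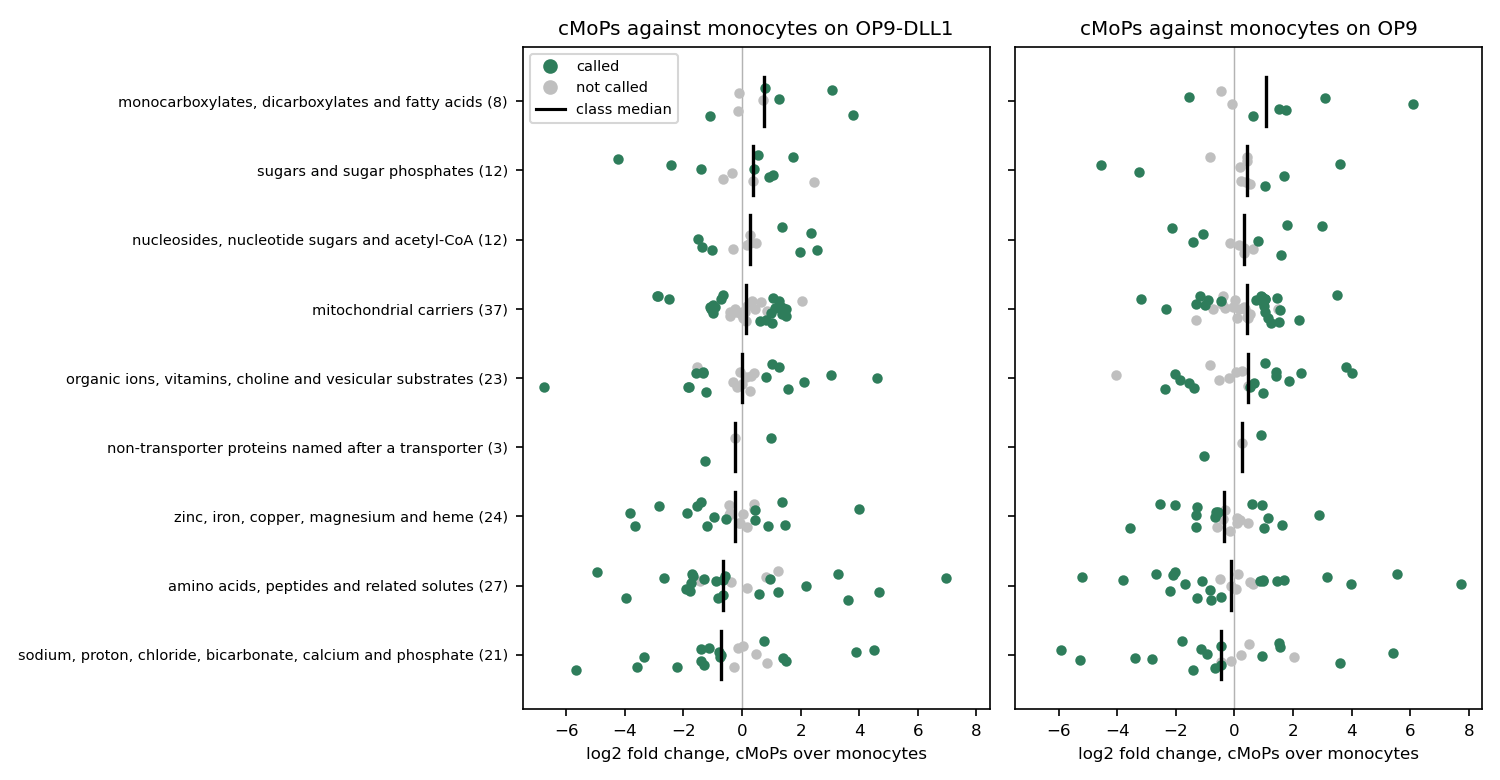
Log2 fold change of cMoPs over monocytes on OP9-DLL1 (left) and on OP9 (right) for each SLC gene by substrate class, with the number of genes in brackets, a bar at the class median and green points for genes that passed. The monocarboxylate class has the highest median on each stroma (0.73 on OP9-DLL1 and 1.07 on OP9) and the ion transporters the lowest (-0.73 on OP9-DLL1 and -0.46 on OP9).

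Of 35 transporters and partner proteins outside the SLC names, 30 were in the table. In monocytes on OP9-DLL1 against OP9, 1 rose and 1 fell, and in cMoPs none passed, beside the 6.39% and 0.77% of all genes given above. Bsg, the chaperone of lactate transporters such as Slc16a1, had 195 and 251 CPM in monocytes on OP9-DLL1, against 117 and 150 CPM on OP9 (log2 0.74 ± 0.17, adjusted p = 0.0345). Slc16a1 went the other way, but it was low in monocytes and its call was lost whichever library was left out. Sfxn1, a mitochondrial serine transporter, had 104 and 112 CPM in monocytes on OP9-DLL1, against 150 and 155 CPM on OP9 (log2 -0.50 ± 0.10, adjusted p = 0.0231). Mpc2, a subunit of the mitochondrial pyruvate carrier, had 87.0 and 106 CPM in monocytes on OP9-DLL1, against 45.5 and 69.3 CPM on OP9, without passing (log2 0.78 ± 0.20, adjusted p = 0.0557). Unc93b1, which escorts Toll-like receptors to endosomes, had 808 and 738 CPM in monocytes on OP9-DLL1, against 675 and 444 CPM on OP9, also without passing (adjusted p = 0.186). For cMoPs against monocytes, 7 of the 30 were higher and 13 lower on OP9-DLL1, and 9 higher and 11 lower on OP9, 66.7% on each beside 57.4% and 56.5% of all genes tested.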

How the data were processed

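RNA-seq of 8 libraries in 4 groups of 2 was used. The deposited table holds log2 CPM per gene, made by the authors on mm10. The submitters' processing notes name limma, edgeR, featureCounts 2.0.3, Salmon 1.5.2, STAR 2.7.9a, bcl2fastq and Subread, without roles. The authors' deposited p-values and log2 fold changes served only as a check. By them 11 members passed in monocytes, 10 of them here in the same direction (Slc7a8 is the other). In cMoPs 3 passed, 2 of them here (Slc7a1 is the other). For cMoPs against monocytes, 119 passed on OP9-DLL1, 111 of them here, and 92 on OP9, 91 of them here. The authors' values passed 64.7% of all genes on OP9-DLL1 and 49.4% on OP9. On OP9, Slc52a3 passed by the authors' values and not here (authors' adjusted p 0.00237). Slc44a4 passed on OP9 here and not by the authors' values (authors' adjusted p 0.0582). Slc7a4, Slc9a3r1, Slc16a1 and Slc37a1 passed in monocytes here and not by the authors' values (authors' adjusted p 0.139, 0.0509, 0.271 and 0.137).

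The deposited log2 values gave whole reads for 100.0% of values (tolerance 0.001), so depth was recovered; intervals and floors cover counting error only. Of 13430 entries, 42 repeated a gene and were dropped. Positions are from GENCODE M21. limma-trend (limma 3.58.1, R 4.3.3) was fitted to the 8 libraries together, each group with its own mean, which leaves 4 residual degrees of freedom. Genes had to reach 1 CPM in 2 libraries (13374 tested, 14 left out). Tests were two-sided, with Benjamini-Hochberg adjustment over all genes tested, and the fit was tested on simulated data. CPM are read back from the log2 values. The kit does not mark strand.

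The alternatives were no filter, no trend, 1 added to CPM, median centring, voom on recovered reads, a fit of only the groups compared, a replicate block and each library left out. Named were up to 12 members each way per OP9-DLL1 contrast and up to 8 each way per cell-type contrast that passed without overlap and at 1 CPM or more in the higher group, the strongest member per kb and up to 2 of lowest p in each class, and a short list of well-known transporters. Members shown with a difference of 4-fold or more on both stromas, and Slc25a4, Slc25a12, Slc25a45, Slc38a9, Slc48a1, Slc5a6 and Slc9a9, were chosen after their values were seen. The members and lists were chosen with earlier results of these data known.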

Additional observations from a re-analysis of the deposited data

How the results depend on the processing

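No count changed by more than 1.5 times without the filter, with 1 added to CPM or after median centring. Without the trend, 8 members passed in monocytes (14 as reported) and 1 in cMoPs (2 as reported). Fitting only the groups compared gave 8 in monocytes and 4 in cMoPs, and voom gave 15 in monocytes and 1 in cMoPs. Leaving out each library gave 4 to 36 in monocytes, 1 to 4 in cMoPs, 0 to 15 for the difference of responses, 84 to 120 for cMoPs against monocytes on OP9-DLL1 and 83 to 114 on OP9. For cMoPs the count was 4 without either monocyte OP9 library. Why the counts moved was not tested. With 1 library left in a group, it was assumed to vary like the other groups.

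Replicate numbers are shared between groups, but the labels do not say that a number marks a shared animal or day. The numbers were therefore not taken to pair libraries. Deviations of same-numbered libraries correlated at 0.023 to 0.089, which does not settle whether they were paired. With the replicate number as a block, 17 members passed in monocytes, 3 in cMoPs (Slc8a1 joining with an adjusted p of 0.045, so that it passed in both cell types), 0 for the difference, 114 for cMoPs against monocytes on OP9-DLL1 and 114 on OP9.

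For the named genes, 1305 values under alternatives kept their call, 65 no longer passed and 10 came to pass. No value that passed, as reported or under the alternative, changed sign. Changes of sign among values that did not pass were not counted. Of the calls as reported, 2 of 14 in monocytes, 1 of 2 in cMoPs, 73 of 111 on OP9-DLL1 and 74 of 110 on OP9 passed under every alternative. Among members 4-fold apart, Slc13a2, Slc36a3 and Slc44a4 on OP9-DLL1, Slc25a18, Slc36a3, Slc39a8 and Slc41a2 on OP9 and Slc24a3 on both lost the call without some libraries. With 2 libraries per group, differences near the spread between libraries cannot be resolved. Members under 1 CPM rest on few reads.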
